A study of Homo sapiens with 12 samples.

Results

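GDF15, FGF21, ADM2, STC2, VEGFA and ANGPTL4 are 6 genes for secreted hormones and growth factors that cells are known to release under mitochondrial or integrated stress. They were picked by name out of the 32077 genes of the count table, for what is known of them and with their change upon pentamidine treatment in these samples already known. The libraries came from PC3 and DU145, long-established lines of human prostate cancer cells that do not depend on androgen, labelled as wild type in genotype. Each line was kept for 48 hours at 1000000 cells per well in medium with vehicle (0 μmol/L) or with 2.5 μmol/L pentamidine, an antiprotozoal drug. Each of the 4 groups held 3 samples, 12 in all, and poly(A) RNA was sequenced. The labels do not say whether the 3 samples of a group came from separate cultures, so the p-values measure the spread between these samples, which may be technical.

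A cell that cannot make enough ATP, import proteins into its mitochondria or find enough amino acids can switch on the integrated stress response. Kinases then phosphorylate the initiation factor eIF2, most translation slows, and the transcription factor ATF4 is translated and switches on genes for amino acid uptake and synthesis. Some ATF4 targets encode secreted proteins, often called mitokines when the stress starts in mitochondria, which carry the signal to other cells and organs. GDF15, a distant member of the TGF-beta superfamily, acts on the brain stem through GFRAL and RET and lowers appetite. FGF21, mainly a liver hormone, signals through FGFR1 with beta-klotho. ADM2, also called intermedin, is a peptide of the calcitonin family that acts on CALCRL with its RAMP partners and widens blood vessels. STC2 is a glycoprotein that blocks the proteases PAPPA and PAPPA2, which otherwise free insulin-like growth factor from its binding proteins. VEGFA drives the growth of blood vessels and is a classical target of hypoxia-inducible factor (HIF). ANGPTL4 blocks lipoprotein lipase and is switched on by the PPAR nuclear receptors, by fasting and by hypoxia.

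The promoters are shown first because ATF4, HIF and PPAR each have a known binding motif and the 6 genes are known targets of different factors among these. RefSeq (GRCh38.p14) gave the 250 bases before its own gene start for 5 of the 6 genes. That start differs from the edge of the Ensembl positions given further below. By those positions the windows of GDF15, STC2 and ANGPTL4 lie inside the gene. A window was printed where it did not run over an annotated exon. Capitals mark letters that matched a searched motif on either strand. The first window, chr19:48755274-48755523 on the plus strand, belongs to FGF21 and holds TGATGCAAT, the composite element to which ATF4 and C/EBP proteins bind, read on the reverse strand. The second, chr22:50481293-50481542 on the plus strand, belongs to ADM2 and holds 3 copies of the GC box GGGCGG on the reverse strand. The third, chr19:8363905-8364150 on the plus strand, belongs to ANGPTL4 and holds the HIF core ACGTG on the reverse strand, GC boxes and a TATA box (TATAAA).
FGF21: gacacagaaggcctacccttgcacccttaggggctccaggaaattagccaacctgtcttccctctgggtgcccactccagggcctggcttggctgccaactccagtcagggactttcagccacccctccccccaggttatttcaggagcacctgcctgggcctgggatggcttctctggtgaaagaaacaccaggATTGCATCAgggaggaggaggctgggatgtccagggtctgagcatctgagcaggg
ADM2: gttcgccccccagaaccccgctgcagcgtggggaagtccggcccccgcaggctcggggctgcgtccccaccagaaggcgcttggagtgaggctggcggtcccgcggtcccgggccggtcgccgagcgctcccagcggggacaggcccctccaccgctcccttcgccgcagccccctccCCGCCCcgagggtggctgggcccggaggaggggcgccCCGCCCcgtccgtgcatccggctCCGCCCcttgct
ANGPTL4: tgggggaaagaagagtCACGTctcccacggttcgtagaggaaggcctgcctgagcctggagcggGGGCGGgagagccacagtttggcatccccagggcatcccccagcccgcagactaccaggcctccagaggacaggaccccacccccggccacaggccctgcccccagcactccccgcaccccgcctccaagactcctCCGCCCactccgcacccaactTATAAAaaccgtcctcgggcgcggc

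The FGF21 match lay 55 to 47 bases before the RefSeq start, from which all distances in this paragraph are counted. TGATGCAAT was found in 0.245% of the 27305 promoters of the same length, and its looser form TGATGNAA, which overlaps it, in 3.19%. Neither form was in the windows of the other 4 genes. The HIF core in the ANGPTL4 window lay 234 to 230 bases before the start, and 18.7% of all promoters hold it. It was searched as ACGTG only, so the form GCGTG, which stands unmarked in the ADM2 window, was not counted. GC boxes were found in 42.3% of promoters and in the windows of GDF15, ADM2 and ANGPTL4, and the ADM2 window was 78.8% G or C. The direct-repeat element of the PPAR receptors, searched with 1 free base between its repeats, was in 0.0183% of promoters and in none of the 5. The windows of GDF15 and STC2 run over exons of other transcripts, so only short stretches around a match are given. Both hold a CCAAT box on the reverse strand, a motif in 33.0% of promoters, 103 to 99 bases before the GDF15 start and 100 to 96 bases before the STC2 start, and GDF15 and ANGPTL4 each hold a TATA box 29 to 24 bases before the start, a motif in 11.1% of promoters. These stretches are chr19:18386042-18386071 (plus strand) for the CCAAT box and chr19:18386117-18386146 (plus strand) for the TATA box of GDF15, and chr5:173328498-173328527 (minus strand) for STC2. A match in these letters is a description and does not show that a factor bound there.
GDF15, CCAAT box: cccagctgtggtcATTGGagtgtttactct
GDF15, TATA box: aagtccggggacTATAAAggccggtccggc
STC2, CCAAT box: gccggggtctcggATTGGtccagccgccgg

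Samples held 13514195 to 15131436 counts, and no pair of replicates was as close as counting noise alone would make it (mean chi-square per gene 1.72 to 7.30). The 3 pairs of vehicle-treated PC3 samples stood apart with 3.64, 5.98 and 7.30, against at most 3.13 for any pair of the other groups. Levels are given in CPM, counts scaled by edgeR's TMM method to the depth and composition of each library but not to gene length. The labelled cell types were set against defining markers. KRT8 and KRT18, keratins of glandular epithelium, were at 18.5 to 21.4 and 144 to 171 CPM in vehicle-treated PC3 samples and at 2616 to 2795 and 895 to 941 CPM in vehicle-treated DU145 samples. However, the epithelial markers EPCAM and KRT19 had at most 3 counts in every library of both lines, and CDH1 (E-cadherin) had at most 1 count in PC3 and at most 10 in DU145 libraries. Thus 3 of the 5 epithelial markers go against what is known of the named lines in these libraries, and the names PC3 and DU145 below are those of the labels. The summed level of the epithelial markers was 196 to 224 CPM in PC3 and 2503 to 2564 CPM in DU145 samples after pentamidine treatment, and its part in the results was not tested. Leukocyte, fibroblast and endothelial markers summed to at most 3.21 CPM in any sample.

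**Figure D1:**
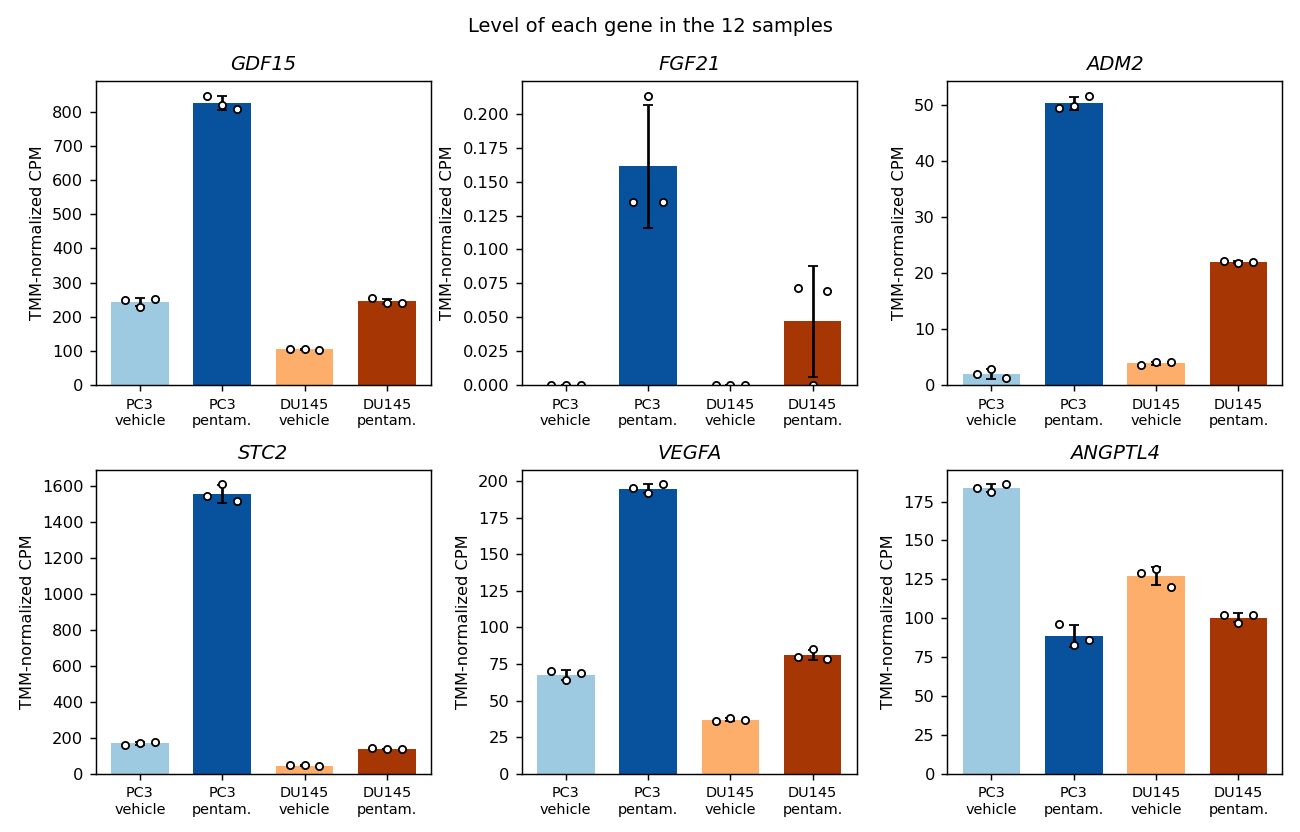
Level of the 6 genes in TMM-normalized CPM (vertical axes, each from 0) in the 4 groups, with 3 samples each. Bars are means, error bars are SD and circles are samples. GDF15, ADM2, STC2 and VEGFA were higher in every pentamidine-treated sample than in every vehicle-treated sample of the same line, ANGPTL4 was lower, and FGF21 stood at a few counts at most. Such a lack of overlap, in either direction, was found for 52.1% of all genes tested in PC3 and 44% in DU145 cells.

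The values of the 6 genes upon pentamidine treatment follow as a description without a test, because they were known when the genes were chosen. ADM2, STC2, GDF15 and VEGFA were higher upon pentamidine treatment in both lines, with larger changes in PC3 cells, whereas ANGPTL4 was lower in both lines, which goes against grouping it with factors that rise under stress. FGF21 was near the limit of detection. All 5 detected genes passed the filter on low counts in both lines. In PC3 cells 4 of them lay past the limits for a call on the higher side and 1 on the lower side (absolute log2 fold change above 1 and adjusted p below 0.05 in edgeR), where 3.44% and 1.31% of the 13861 genes tested did so. In DU145 cells 4 lay past the limits on the higher side and none on the lower side, where 1.37% and 0.657% of 14313 genes did so. Pentamidine- and vehicle-treated samples did not overlap for any of the 5 genes in either line, as for 52.1% of all genes tested in PC3 and 44% in DU145 cells. With each PC3 sample left out in turn, the log2 fold change in PC3 cells ranged from 4.40 to 5.01 for ADM2, 3.15 to 3.24 for STC2, 1.73 to 1.80 for GDF15, 1.49 to 1.56 for VEGFA and -1.11 to -1.01 for ANGPTL4. Because the measurements are of whole cultures, a change in the share of expressing cells and a change in RNA per cell cannot be told apart.

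ADM2 (ENSG00000128165, chr22:50481556-50486440, plus strand, GRCh38) changed most. In the PC3 samples it was counted 28, 44 and 16 times with vehicle and 732, 699 and 765 times with pentamidine. In the DU145 samples the counts were 47, 58 and 59 with vehicle and 310, 322 and 315 with pentamidine. Relative to their mean, the low counts of vehicle-treated PC3 samples spread more widely than those of any other group, while the pentamidine-treated samples lay close together in both lines. Mean levels were 1.98 ± 0.84 CPM with vehicle and 50.3 ± 1.2 CPM with the drug in PC3 samples (SD, n = 3). They were 3.88 ± 0.32 CPM with vehicle and 22.0 ± 0.16 CPM with the drug in DU145 samples (SD, n = 3). This is a log2 fold change of 4.64 (SE 0.15), or 25.0-fold, in PC3 and of 2.50 (SE 0.12), or 5.66-fold, in DU145 cells. By log2 fold change ADM2 stood 12th from the highest of 13861 genes in PC3 and 6th of 14313 in DU145 cells. MIOX, which begins 344 bases past ADM2 on the same strand, had at most 15 counts in any sample.

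STC2 (ENSG00000113739, chr5:173314713-173329503, minus strand) followed. Its counts in PC3 samples were 2353, 2636 and 2416 with vehicle and 22823, 22610 and 22407 with pentamidine. In DU145 samples they were 614, 728 and 585 with vehicle and 1961, 2007 and 1976 with pentamidine. Every pentamidine-treated DU145 sample was therefore still below every vehicle-treated PC3 sample. The PC3 level was 170 ± 9.4 CPM with vehicle and 1555 ± 49 CPM with the drug (SD, n = 3), 9.20-fold higher (log2 fold change 3.20, SE 0.056). The DU145 level was 45.7 ± 5.4 CPM with vehicle and 138 ± 2.0 CPM with the drug (SD, n = 3), 3.03-fold higher (log2 fold change 1.60, SE 0.052).

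GDF15 (ENSG00000130513, chr19:18374731-18389176, plus strand) was well expressed without the drug. In PC3 samples it had 3655, 3539 and 3398 counts with vehicle and 12545, 11531 and 11962 with pentamidine. In DU145 samples it had 1430, 1484 and 1493 counts with vehicle and 3547, 3546 and 3454 with pentamidine. The DU145 samples given the drug thus reached the range of PC3 samples without it. The log2 fold change was 1.77 (SE 0.050) or 3.41-fold in PC3 cells, where the level was 243 ± 12 CPM with vehicle and 825 ± 20 CPM with the drug (SD, n = 3). It was 1.23 (SE 0.038) or 2.35-fold in DU145 cells, where the level was 104 ± 2.0 CPM with vehicle and 245 ± 7.6 CPM with the drug (SD, n = 3). The microRNA gene MIR3189 lies inside GDF15 on the same strand, so that its 8 to 44 counts per sample may be reads of GDF15.

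VEGFA (ENSG00000112715, chr6:43770184-43786487, plus strand) was counted 1032, 985 and 933 times in PC3 samples with vehicle and 2888, 2694 and 2929 times with pentamidine. The DU145 counts were 482, 543 and 533 with vehicle and 1115, 1256 and 1132 with pentamidine. These 4 groups did not overlap, with the drug-treated DU145 samples just above PC3 samples given vehicle. The share of all genes with 4 such separate groups was not counted. In PC3 cells the mean was 67.5 ± 3.3 CPM with vehicle and 195 ± 3.1 CPM with the drug (SD, n = 3), 2.90-fold higher (log2 fold change 1.53, SE 0.054). In DU145 cells it was 36.9 ± 1.1 CPM with vehicle and 81.2 ± 3.6 CPM with the drug (SD, n = 3), 2.21-fold higher (log2 fold change 1.14, SE 0.055). An antisense gene, AL136131.3, overlaps VEGFA and was not analysed here, and the sources used here do not say whether counting used the strand.

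ANGPTL4 (ENSG00000167772, chr19:8363289-8374373, plus strand) moved the other way. Its counts in PC3 samples were 2707, 2796 and 2524 with vehicle and 1425, 1166 and 1274 with pentamidine. In DU145 samples they were 1727, 1877 and 1748 with vehicle and 1424, 1425 and 1465 with pentamidine. The line with the higher level without the drug had the lower level with it. PC3 samples averaged 184 ± 2.5 CPM with vehicle and 88.4 ± 6.9 CPM with the drug (SD, n = 3), 2.07-fold lower (log2 fold change -1.05, SE 0.058). DU145 samples averaged 127 ± 5.8 CPM with vehicle and 100.2 ± 2.9 CPM with the drug (SD, n = 3), 1.26-fold lower (log2 fold change -0.34, SE 0.043), which is inside the fold limit. RAB11B-AS1 shares 1 exon base with ANGPTL4 on the other strand and had at most 6 counts in any sample.

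FGF21 (ENSG00000105550, chr19:48755559-48758330, plus strand) had 0 counts in all 6 vehicle-treated samples. The pentamidine-treated samples had 2, 3 and 2 counts in PC3 and 1, 0 and 1 counts in DU145 cells. Since a count of 0 allows up to 3 counts in a library, and no sample exceeded this, no fold change is given, and the gene was left untested by the low-count filter. Its neighbour FUT1, 169 bases away on the other strand, had at most 8 counts in any sample. Together the 6 genes took 0.0672% of all counts in vehicle-treated and 0.272% in pentamidine-treated PC3 samples, and 0.0309% and 0.0592% in the DU145 samples.

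Levels can be compared between genes only per length. Divided by the length of the principal transcript (1200 bases for GDF15, 5353 for STC2, 1199 for VEGFA, 1879 for ANGPTL4 and 4276 for ADM2), GDF15 had the highest level per kilobase in pentamidine-treated PC3 samples, 688 ± 17 CPM per kilobase (SD, n = 3), followed by STC2 at 290 ± 9.1, VEGFA at 163 ± 2.6, ANGPTL4 at 47.1 ± 3.7 and ADM2 at 11.8 ± 0.28. In vehicle-treated PC3 samples the order was GDF15 at 202 ± 9.7, ANGPTL4 at 97.7 ± 1.3, VEGFA at 56.3 ± 2.7, STC2 at 31.7 ± 1.8 and ADM2 at 0.46 ± 0.20. By this length STC2 lay below ANGPTL4 and VEGFA with vehicle and above both with the drug. ADM2 had the largest fold change and the lowest level of the 5. The place of VEGFA depends on the length used: over the union of all its exons (14431 bases) it stood at 13.5 CPM per kilobase in pentamidine-treated PC3 samples, below ANGPTL4 at 35.6, and STC2 at 27.7 was above VEGFA at 4.68 with vehicle already.

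**Figure D2:**
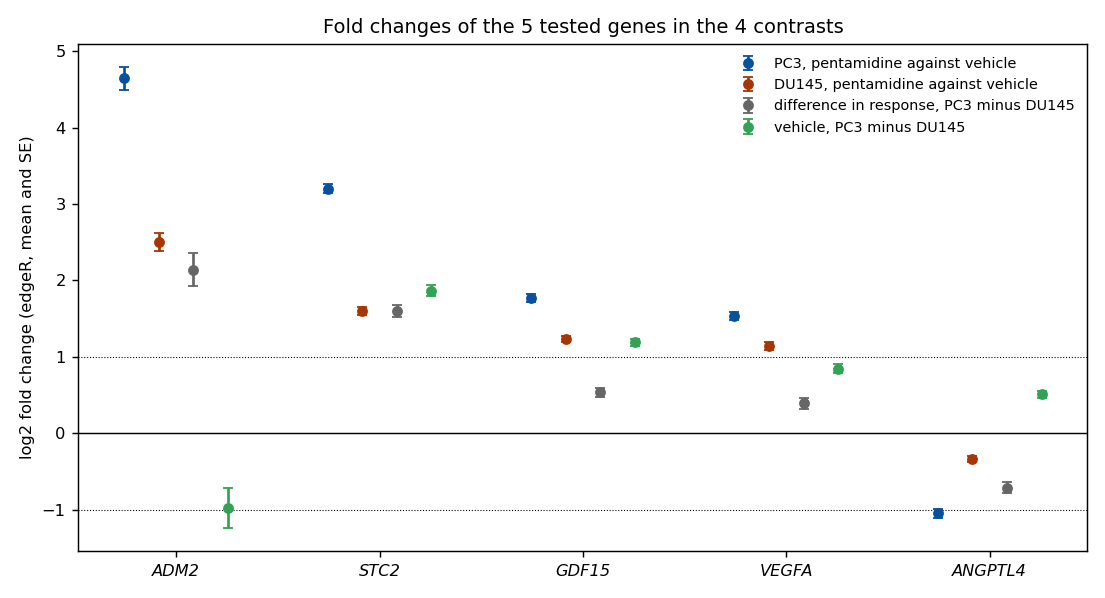
Log2 fold changes (vertical axis, points, with SE as error bars, edgeR) of the 5 tested genes for pentamidine against vehicle in PC3 and in DU145 cells, for the difference between these responses and for vehicle-treated PC3 against vehicle-treated DU145 cells, each from 3 samples per group. Dotted lines mark a log2 fold change of 1 in either direction. The response of ADM2, STC2, GDF15 and VEGFA was larger in PC3 cells, and ADM2 alone was lower in PC3 than in DU145 cells without the drug.

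The next comparison asked whether the response differed between the lines, fitted for every gene as the interaction of treatment and cell line over all 12 samples. The difference is computed from the 2 responses that were known when the genes were chosen, so for these genes it is also a description without a test. ADM2 had a log2 difference (PC3 minus DU145) of 2.14 (SE 0.22) and STC2 one of 1.60 (SE 0.080). Both lay past the limits for a call on the higher side, where 1.71% of the 15226 genes tested did so. GDF15 and VEGFA differed less, by 0.54 (SE 0.060) and 0.39 (SE 0.074) on the log2 scale. ANGPTL4 had a log2 difference of -0.71 (SE 0.073), being lower still in PC3 cells. These 3 lay inside the fold limit, and all 5 genes lay below an adjusted p of 0.05 (edgeR), as did 20.4% of all genes tested.

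Without the drug, the lines also differed in the level of the 5 genes. Vehicle-treated PC3 cells had more STC2 (log2 difference 1.87, SE 0.074, adjusted p = 1.9e-12, edgeR) and more GDF15 (1.19, SE 0.050, adjusted p = 3.8e-12, edgeR) than vehicle-treated DU145 cells, and both passed the fold limit, as did 7.52% of the 14394 genes tested on the higher side. VEGFA (0.85, SE 0.063, adjusted p = 5.5e-09, edgeR) and ANGPTL4 (0.51, SE 0.049, adjusted p = 1.4e-07, edgeR) were also higher in PC3 cells, within the fold limit. ADM2 was lower in PC3 cells (-0.98, SE 0.26, adjusted p = 0.0035, edgeR). Its log2 difference passed the fold limit without PC3 vehicle replicate 2 (-1.34) or without DU145 vehicle replicate 1 (-1.05). An adjusted p below 0.05 was reached by 65.3% of all genes in this comparison, so the 2 lines differed broadly. The vehicle samples enter both this comparison and the responses, so the 2 sets of values are not independent. In order of level, GDF15 and VEGFA were highest in PC3 with pentamidine, then DU145 with pentamidine, PC3 with vehicle and DU145 with vehicle. STC2 ranked by line first (PC3 with pentamidine, PC3 with vehicle, DU145 with pentamidine, DU145 with vehicle), ADM2 by treatment first (PC3 with pentamidine, DU145 with pentamidine, DU145 with vehicle, PC3 with vehicle), and ANGPTL4 ran from PC3 with vehicle through DU145 with vehicle and DU145 with pentamidine to PC3 with pentamidine. Neighbours in these orders did not overlap, except for GDF15 between DU145 with pentamidine and PC3 with vehicle (ratio of means 1.01). How many of all genes show such separate neighbours was not counted, so this only describes the 5 genes.

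**Figure D3:**
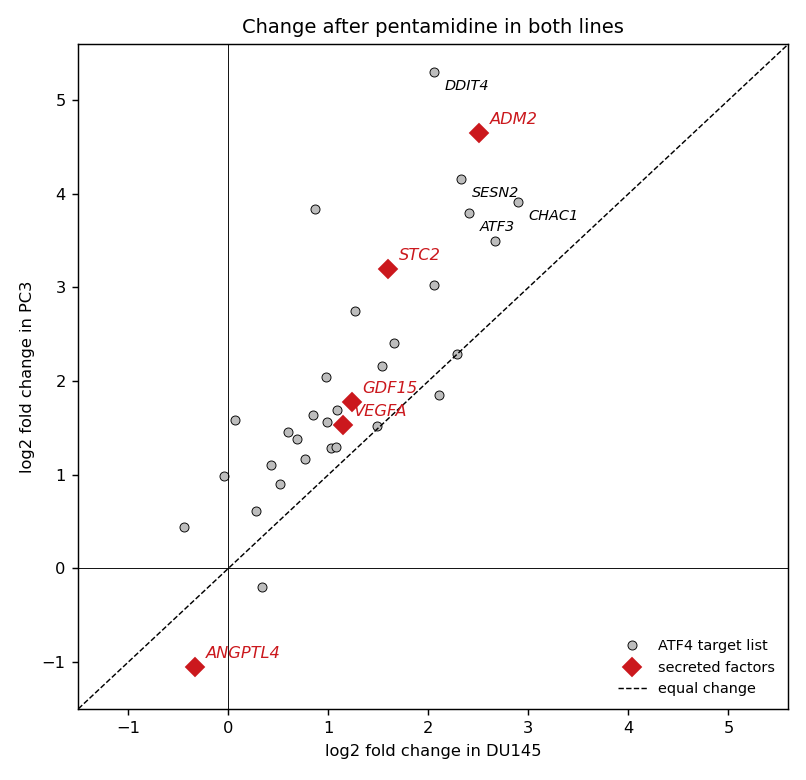
Log2 fold change upon pentamidine treatment in DU145 (horizontal axis) and PC3 cells (vertical axis) for the 29 ATF4 target genes tested in both lines (grey circles) and the 5 secreted factors (red diamonds), from 3 samples per group. The dashed line marks equal change, and ADM2, STC2, GDF15 and VEGFA lie above it among the ATF4 targets, while ANGPTL4 lies below 0 on both axes.

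Other genes of the pathways that control the 6 factors were described by list. All lists were chosen with earlier results of these data known, so their counts, medians and p-values are a description and not independent evidence. Of all genes tested, 3.44% were called higher in PC3 and 1.37% in DU145 cells. ATF4 itself rose in PC3 cells (log2 fold change 1.13, adjusted p = 2.3e-11, edgeR), and in DU145 cells its log2 fold change was 0.97 (adjusted p = 1.1e-31, edgeR), just inside the fold limit. Among 30 ATF4 targets other than the 6 factors, 25 of 30 tested were called higher and none lower in PC3 cells, with a median log2 fold change of 1.66 against 0.0046 over all genes tested. In DU145 cells 15 of 29 tested were called higher and none lower, with a median of 1.03 against 0.0085. Those with the largest change in PC3 cells were DDIT4, an inhibitor of mTORC1 (log2 fold change 5.30, adjusted p = 2.0e-18, edgeR), the stress factor NUPR1 (4.91, adjusted p = 1.3e-12) and the leucine sensor SESN2 (4.16, adjusted p = 8.0e-18). In DU145 cells they were CHAC1, which degrades glutathione (2.89, adjusted p = 7.8e-36, edgeR), ALDH1L2 of mitochondrial folate metabolism (2.67, adjusted p = 2.0e-17) and the transcription factor ATF3 (2.41, adjusted p = 2.2e-10). The ATF4 targets also differed in response between the lines: the difference passed the adjusted p alone for 23 genes that were higher in PC3 and for 1 that was lower, of 30 tested, and 9 also passed the fold limit. Over all 15226 genes tested for this difference, 20.4% passed the adjusted p alone, and 1.71% passed both limits on the higher side. DDIT4 had a log2 difference of 3.25 (SE 0.11, adjusted p = 1.1e-17, edgeR), whereas that of ATF4 itself was 0.16 (SE 0.061, adjusted p = 0.072, edgeR).

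Of the 24 listed regulators of the 6 factors, 3 of 22 tested were called higher in PC3 and 2 of 23 in DU145 cells, with none lower. The share called higher among all genes tested was 3.44% in PC3 and 1.37% in DU145 cells. EPAS1, which encodes the hypoxia-inducible subunit HIF-2alpha, rose in both lines (log2 fold change 2.66 in PC3, adjusted p = 1.0e-12, and 2.03 in DU145, adjusted p = 1.0e-33, edgeR). HIF1A had log2 fold changes of -0.06 and -0.14. XBP1, a transcription factor of the endoplasmic reticulum stress response, rose in PC3 cells (1.42, adjusted p = 6.5e-12, edgeR). PPARG was called higher in DU145 cells (1.11, adjusted p = 0.049, edgeR) from 5 to 7 counts with vehicle and 10 to 15 with pentamidine, and its adjusted p exceeded 0.05 with any 1 of the 6 samples left out (log2 fold change 0.99 to 1.26). In PC3 cells PPARG had a log2 fold change of -0.31. None of the eIF2 kinases EIF2AK1, EIF2AK2, EIF2AK3 and EIF2AK4 was called in either line. Their log2 fold changes ran from -0.46 to -0.03 in PC3 and from -0.22 to 0.06 in DU145 cells. The mitochondrial protease OMA1 stood at -0.17 and -0.03. All values of these regulators are RNA levels, and the level and activity of their proteins were not measured here.

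**Figure D4:**
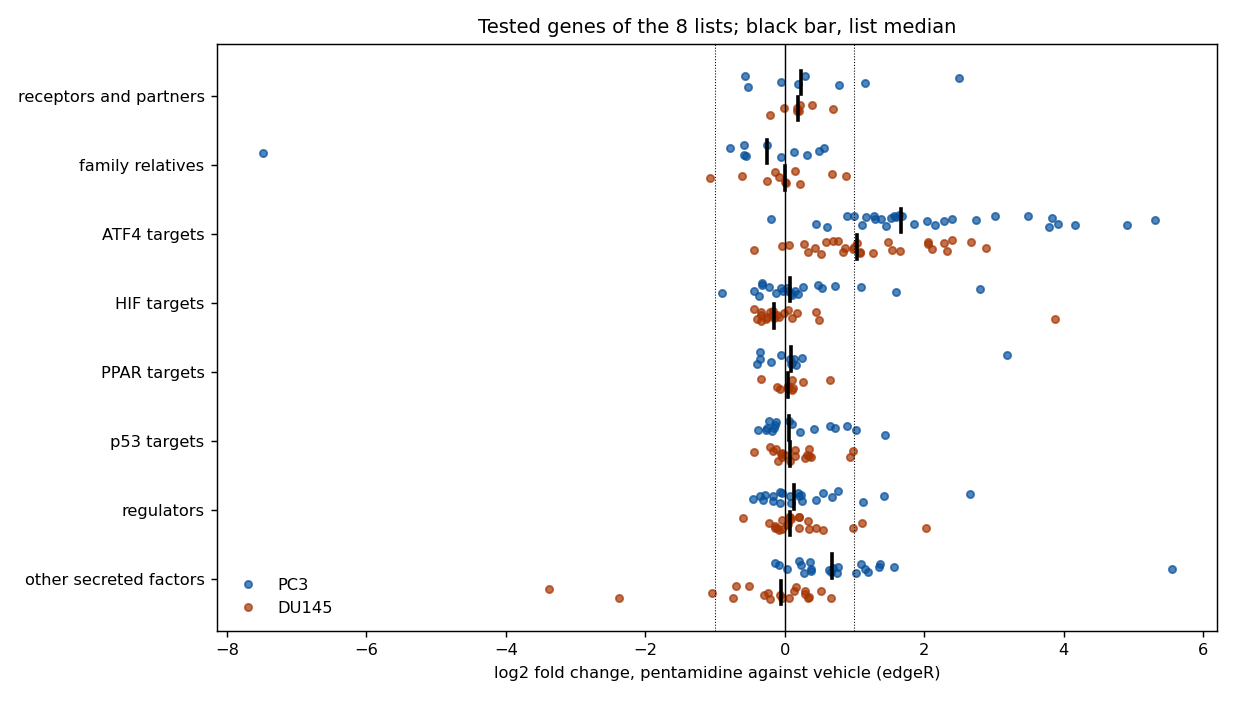
Log2 fold change upon pentamidine treatment (horizontal axis, edgeR) of each tested gene of the 8 lists (rows) in PC3 (blue) and DU145 cells (brown), with the list median as a black bar and dotted lines at a log2 fold change of 1 in either direction. The medians of the ATF4 targets were 1.66 and 1.03 and those of the HIF targets 0.071 and -0.16. The leftmost point, IAPP, and the rightmost, INHBE, had 0 or 1 counts in each sample of one group, so the place of both depends on the fit.

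Of the HIF targets other than VEGFA and ANGPTL4, 3 of 22 tested in PC3 cells were called higher and none lower, with a median log2 fold change of 0.071. These were NDUFA4L2, an inhibitor of respiration (2.80, adjusted p = 4.8e-07, edgeR), NDRG1 (1.60, adjusted p = 1.7e-05) and the glucose transporter SLC2A3 (1.09, adjusted p = 3.7e-05), the last of which fell inside the fold limit without PC3 vehicle replicate 1 (0.95). In DU145 cells 1 of 20 was called higher and none lower, with a median of -0.16. This was NDUFA4L2, with 3 counts over the vehicle and 50 over the pentamidine samples, a ratio of 16.9 (95% exact interval 5.47 to 84.9, counting error only). Among PPAR targets other than ANGPTL4, 1 of 12 tested was called higher in PC3 cells, TXNIP (3.19, adjusted p = 3.6e-09, edgeR), and none of 11 in DU145 cells, where UCP2 had the largest change of those tested (0.65). The medians were 0.086 and 0.053. Of the p53 targets, 2 of 17 tested were called higher in PC3 cells, GADD45A (1.45, adjusted p = 2.4e-11, edgeR) and TP53INP1 (1.02, adjusted p = 4.3e-05), and none of 19 in DU145 cells, where TP53INP1 had the largest change of those tested (0.99). TP53INP1 fell inside the fold limit in PC3 cells without vehicle replicate 2 (1.00) or pentamidine replicate 3 (0.92), and passed it in DU145 cells without vehicle replicate 2 (1.09) or pentamidine replicate 1 (1.06). The medians were 0.064 and 0.078. None of these 3 lists had a gene called lower in either line. Among all genes tested, 3.44% were called higher and 1.31% lower in PC3 cells, and 1.37% and 0.657% in DU145 cells.

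Receptors and binding partners were mostly at low counts. Of the 23 listed, 8 were tested in each line, and 2 were called higher in PC3 and none in DU145 cells. The share over all genes tested was 3.44% in PC3 and 1.37% in DU145 cells. Both that were called belong to STC2: its target proteases PAPPA2 (log2 fold change 2.50, adjusted p = 4.1e-08, edgeR) and PAPPA (1.15, adjusted p = 3.0e-06) rose in PC3 cells, PAPPA2 from 16 to 22 counts with vehicle to 96 to 127 counts with pentamidine. In DU145 cells both had at most 11 counts in any sample. IGFBP4, a substrate of PAPPA, had log2 fold changes of 0.19 in PC3 and 0.69 in DU145 cells, the largest of those tested there. The FGF21 receptor FGFR1 stood at -0.05 and -0.01. KLB, the gene of its partner beta-klotho, had 7 to 15 counts with vehicle and 3 to 7 with pentamidine in PC3 samples. In DU145 samples it had 9 to 10 and 7 to 16 counts (log2 fold change 0.20, adjusted p = 0.76, edgeR). KL, CALCRL, RAMP1, FLT1 and GPIHBP1 had at most 5 counts in any sample. RET, the signalling partner of the GDF15 receptor, had at most 2 counts in PC3 and 3 to 8 in DU145 samples.

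Close relatives of the 6 factors were described in the same way. Of the 30 listed, 11 were tested in each line, and 1 was called lower in each and none higher. The share called lower among all genes tested was 1.31% in PC3 and 0.657% in DU145 cells. In PC3 cells this was IAPP, the calcitonin-family peptide amylin, with 18 to 27 counts with vehicle and 0 in all pentamidine samples, at least 7.53-fold lower against a floor of 3 counts per library. In DU145 cells it was VEGFC, a growth factor for lymphatic vessels (log2 fold change -1.08, adjusted p = 7.0e-07, edgeR), which fell inside the fold limit without pentamidine replicate 1 (-0.85). The median of the list was -0.25 in PC3 cells, also with IAPP at its bound, and 0.0073 in DU145 cells. The relative of ADM2, ADM, stood at -0.05 and -0.25, and that of STC2, STC1, at -0.56 and 0.01.

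Of 30 other secreted factors, 8 of 22 tested were called higher in PC3 cells and none lower, with a median log2 fold change of 0.67, whereas in DU145 cells none of 20 was called higher and 3 were called lower, with a median of -0.06. Among all genes tested, 3.44% were called higher and 1.31% lower in PC3 cells, and 1.37% and 0.657% in DU145 cells. Among those called in PC3 cells, the largest changes were those of INHBE, an activin subunit made mainly in the liver, of the matrix protein CTGF (1.57, adjusted p = 4.5e-14, edgeR) and of METRNL (1.36, adjusted p = 0.0040), which fell inside the fold limit without vehicle replicate 3 (0.96). INHBE had 1 count over the PC3 vehicle and 64 over the PC3 pentamidine samples, a ratio of 63.5 (95% exact interval 11 to 2547, counting error only). The 3 that fell in DU145 cells were the chemokine CXCL8 (-3.38, adjusted p = 1.7e-35, edgeR), the cytokine IL6 (-2.38, adjusted p = 1.7e-28) and the growth factor HBEGF (-1.04, adjusted p = 2.1e-21). IL6 rose in PC3 cells instead (1.15, adjusted p = 3.0e-07), and its log2 difference in response between the lines was 3.52 (SE 0.15, adjusted p = 1.1e-15, edgeR).

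The genes whose pattern over the 12 samples was most like that of each factor were ranked by Pearson's r of log2 CPM. The 12 samples fall into 4 groups, so r mainly reflects the order of the groups. GDF15 was most like XPOT, a tRNA exporter in the ATF4 list (r = 0.995), followed by VEGFA (0.993), LINC00941 (0.993), STC2 (0.993) and RCN1 (0.992). STC2 was also most like XPOT (r = 0.996), then ANK2, FLYWCH1, ANKRD11 and NLRP1 (each 0.995). VEGFA was most like GDF15 (r = 0.993), then CCNI, MGEA5, YARS and BCAT1 (0.991 to 0.992). ADM2 was most like the amino acid transporter SLC1A4 (r = 0.995), then MT-RNR2 (0.991), the mitochondria-encoded large ribosomal RNA, GRPEL2 (0.99), CEBPG (0.989) and SH3KBP1 (0.986). The log2 fold change of MT-RNR2 was 2.45 in PC3 and 1.36 in DU145 cells. The paper also describes a rise of this RNA in its sequencing, but reports a reduction by qPCR and presumes sequencing errors. Only poly(A) RNA was captured, and the cause of this discrepancy was not tested. ANGPTL4 was most like RPS6KA1 (r = 0.981), XRCC2 (0.980), B4GALNT1 (0.979), HAT1 and HSPA1A (each 0.978), and these 5 had log2 fold changes of -1.21 to -0.49 in PC3 and -0.48 to -0.18 in DU145 cells.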

How the data were processed

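The 6 genes and the gene lists were chosen with earlier results of these data known. Oligo(dT)-enriched RNA was sequenced on an Illumina NovaSeq, and per the labels' processing notes reads were aligned with HISAT2 2.1.0 to GRCh38 and tested with DESeq 1.18.1. The counting program and its strand setting are not given in the sources used here. The first deposited table holds raw counts of reads on each gene. A second deposited table is named for FPKM but holds CPM: all 384924 values equalled count over library total within 1 part in 100000. The 2 tables of the authors' own comparisons, with log2 fold changes, p-values and adjusted p-values, were not used.

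Of 33595 Ensembl entries, those sharing a name and identical counts were merged (32077 genes). Positions are as deposited, and 30906 of the 31961 genes shared with GENCODE 29 had the same position there, FGF21 not among them. Counts were tested with edgeR 4.0.16 (R 4.3.3, quasi-likelihood test, TMM, filterByExpr with a minimum of 10 counts), with p-values adjusted over all genes by Benjamini-Hochberg. A call needed both a log2 fold change beyond 1 in size and adjusted p below 0.05. Each line was tested on its own 6 samples, the difference in response on all 12, and vehicle PC3 against vehicle DU145 on 6. SE is the log2 fold change over the root of the F statistic. A floor of 3 counts per library and all intervals cover counting error only, since reads carry no molecular identifiers, and totals of 13514195 to 15131436 counts set the precision. All 6 genes are named, and of each list at most the 3 called genes of largest change per line, or, where none was called, the gene of largest change. Receptors and regulators could be named with a factor, as could the 5 genes of highest r (log2 CPM, prior count 2) and genes within 1000 bases.

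Alternatives were DESeq2 1.42.0, other scalings and filters, limma 3.58.1 on log2(CPM + 1) and log2(CPM + 0.1), 1 fit of all samples, the replicate number as a block and each sample left out. Values from log2(CPM + 1) understate changes of low genes. The scripts were tested on simulated data.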

Additional observations from a re-analysis of the deposited data

Results flagged for a closer look

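The change upon pentamidine treatment differed in size between PC3 and DU145 cells for each of the 5 tested genes (interaction of treatment and cell line, edgeR, 12 samples). The genes were chosen with their responses in these samples known, so the values are a description and not independent evidence of a difference. The log2 difference, PC3 minus DU145, was 2.14 for ADM2, 1.60 for STC2, 0.54 for GDF15 and 0.39 for VEGFA, whose levels were higher in 3 of 3 pentamidine-treated samples than in any vehicle-treated sample of the same line in both lines. It was -0.71 for ANGPTL4, whose level was lower in 3 of 3 pentamidine-treated samples of both lines. Among all genes tested, 52.1% in PC3 and 44% in DU145 cells also had no overlap between pentamidine- and vehicle-treated samples, in either direction.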

How the results depend on the processing

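No value of the 5 tested genes changed direction under any alternative run. The adjusted p alone, with no fold limit, called 6010 genes in PC3, 4860 in DU145, 3112 for the difference in response and 9405 between the vehicle groups. It added the difference in response of GDF15 (0.54), VEGFA (0.39) and ANGPTL4 (-0.71), and the vehicle differences of ADM2 (-0.98), VEGFA (0.85) and ANGPTL4 (0.51), to those past the limits. At least 10 counts in every sample left 431 calls in PC3, 154 in DU145, 251 for the difference in response and 1432 between the vehicle groups, since fewer genes were tested. Limma on log2(CPM + 1) gave 331, 110 and 227 for PC3, DU145 and the difference in response, and 332, 110 and 228 with a mean CPM of at least 0.5, against 658, 290 and 399 by edgeR. The log2 fold change of ADM2 in DU145 cells was then 2.28 in place of 2.50, with and without that filter, as this scale shrinks changes of low genes. DESeq2 called 193 genes in DU145 cells, and the cause was not tested.

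With each sample left out in turn, counts ranged from 654 to 741 in PC3, 293 to 319 in DU145, 357 to 412 for the difference in response and 2876 to 2990 between the vehicle groups, and the vehicle difference of ADM2 from -1.34 to -0.72. Same-numbered samples deviated together with correlations of -0.12 to 0.05 over the 3 comparisons, and at most 2 of 3 samples were closest to their own number, so the numbers were not taken to pair the samples. With the replicate block, 648, 285, 362 and 2773 genes were called in the same order, and the vehicle difference of ADM2 was -1.01, past the fold limit. The block changed no other call of the 5 genes. For the single genes named from the lists, 869 values over all alternatives stayed on their side of the limits, 21 newly passed and 30 no longer passed. Depth limits FGF21, which lay at or under 3 counts in every sample.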
